A study of Mus musculus with 20 samples.

Results

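The sarcomeric myosin heavy chains are the motor proteins of the thick filament in striated muscle. They were followed through every probe set that the platform annotation assigns to 1 gene only, for the genes Myh1, Myh2, Myh3, Myh4, Myh6, Myh7, Myh7b and Myh8. These 8 of 18193 genes have 12 probe sets, among 45101 on the array, of which 34945 are assigned to 1 gene. Of the 12, 10 probe sets from 7 genes were bright enough to be tested, and both probe sets of Myh6 were too dim. The Affymetrix mouse arrays measured total RNA of the gastrocnemius, a calf muscle, from mice in 2 groups of 10 samples. The JA16 group received intraperitoneal JA16, an antibody against myostatin, at 0.12 mg per g body weight on day 1 and 0.09 mg per g on day 3. The saline group received saline on the same days, and all mice were killed on day 5. Strain, sex and age are not named in the labels, which also do not say that each sample came from its own mouse, so the p-values cover only the spread among the samples measured, some of it possibly technical.

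Each heavy chain isoform hydrolyses ATP at its own rate, and the isoform a fibre contains largely sets how fast it shortens. In mouse limb muscle, Myh4 (type IIb), Myh1 (type IIx) and Myh2 (type IIa) encode the adult fast chains, and Myh7 encodes the slow chain, which is also a heart chain. Myh7b encodes a relative of the slow chain, Myh3 and Myh8 encode the embryonic and perinatal chains of developing and regenerating fibres, and Myh6 encodes the alpha chain of the heart. Myostatin is a secreted inhibitor of muscle growth, and the mouse gastrocnemius is mostly fast, with a deep region that holds most of its slow and type IIa fibres.

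In the RefSeq annotation of mouse assembly GRCm38.p6, Myh3, Myh2, Myh1, Myh4 and Myh8 follow each other in this order on the plus strand of chromosome 11. Myh7 and Myh6 are neighbours on the minus strand of chromosome 14, and Myh7b lies on chromosome 2. The promoters of Myh2 (chr11:67170777-67171076), Myh1 (chr11:67199852-67200151), Myh4 (chr11:67237562-67237861) and Myh8 (chr11:67276874-67277173) are shown because they share a 14-base run that no other promoter of the table contains. Each is the plus strand, 5′ to 3′, from 250 bases before the annotated start to 50 bases after it, as RefSeq gives it, with the shared run in capitals.
Myh2: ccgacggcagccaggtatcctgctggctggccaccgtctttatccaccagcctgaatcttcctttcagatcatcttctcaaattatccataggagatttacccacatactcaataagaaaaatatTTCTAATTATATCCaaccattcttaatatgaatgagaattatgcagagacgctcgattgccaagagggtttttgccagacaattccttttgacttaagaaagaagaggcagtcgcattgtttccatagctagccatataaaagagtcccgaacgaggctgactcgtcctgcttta
Myh1: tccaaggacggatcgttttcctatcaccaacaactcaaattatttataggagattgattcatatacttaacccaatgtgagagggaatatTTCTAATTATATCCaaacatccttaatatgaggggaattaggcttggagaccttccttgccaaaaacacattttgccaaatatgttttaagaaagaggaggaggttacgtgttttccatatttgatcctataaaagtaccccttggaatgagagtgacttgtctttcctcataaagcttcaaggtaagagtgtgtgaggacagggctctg
Myh4: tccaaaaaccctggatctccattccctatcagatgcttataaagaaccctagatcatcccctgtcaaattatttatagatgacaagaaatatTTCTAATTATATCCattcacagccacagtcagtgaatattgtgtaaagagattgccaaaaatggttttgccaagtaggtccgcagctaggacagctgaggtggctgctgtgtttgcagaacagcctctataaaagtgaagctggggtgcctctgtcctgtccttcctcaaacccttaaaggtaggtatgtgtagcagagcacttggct
Myh8: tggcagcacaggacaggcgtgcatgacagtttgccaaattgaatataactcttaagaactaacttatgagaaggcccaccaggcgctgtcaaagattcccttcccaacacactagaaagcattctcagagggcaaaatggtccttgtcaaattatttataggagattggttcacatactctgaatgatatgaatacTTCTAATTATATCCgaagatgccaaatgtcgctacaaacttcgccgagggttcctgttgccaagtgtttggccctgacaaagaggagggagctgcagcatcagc

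The run TTCTAATTATATCC was taken as the longest string common to the 4 promoters above, so its presence in them was fixed by that choice. It was in 4 of 32851 mouse promoters of the same length (0.0122%, both strands searched), and these were the 4 genes above. Counting the annotated start as 0, it began at -125 in Myh2, -160 in Myh1, -158 in Myh4 and -54 in Myh8. It was not found in the windows of Myh3, Myh6, Myh7 or Myh7b. A second run, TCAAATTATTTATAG, was taken in the same way as the longest string common to the promoters of Myh1, Myh4 and Myh8. It was in these 3 promoters only (0.00913%), beginning at -216, -187 and -104. It contains a match to the MEF2 consensus, which 3.19% of all promoters hold and no other member promoter held. TATAAA occurred in the windows of Myh3, Myh2, Myh1, Myh4, Myh8 and Myh6 and in 13.6% of all promoters, and 1 of its matches in each of Myh1, Myh4 and Myh8 overlaps the MEF2 match. The motif of muscle E-boxes, CANNTG, was in 72.3% of all promoters and was absent from the windows of Myh2 and Myh1. CATTCC, an MCAT element, was in 14.7% of all promoters and in the windows of Myh1, Myh4, Myh6 and 1 of the 2 starts of Myh7. The CArG box was in 1.63% of all promoters and, among the members, in that of Myh4. These matches describe the letters in the windows and were not tied to any binding measurement.

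The values are MAS5 intensities on a linear scale, scaled by the authors to 1 trimmed mean, with array medians between 38.9 and 77.1. The number of arrays limits the precision, and intensities of different probe sets were ranked only to choose which to name; no level is compared between genes. Skeletal muscle markers were bright on every array: Acta1, skeletal alpha-actin, averaged 21788 ± 2717 in JA16 and 20875.5 ± 1747 in saline samples (SD, n = 10 each). All 8 markers of heart muscle lay below the filter used for testing. Samples that share a replicate number varied together, so results of a second fit, blocked on that number, are given where it matters. The arrays of replicates 1 to 6 and of replicates 7 to 10 formed 2 sets, by the log2 3′-to-5′ ratio of the actin control probes (1.33 to 1.84 on 12 arrays and 0.48 to 0.64 on 8 arrays). Each set held both groups, and values within each set, from the blocked fit, are given for the member probe sets.

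For the myosins, 2 samples stood apart from the rest. JA16 replicate 3 had 16.0-fold less Myh7, 13.9-fold less Myh7b and 7.97-fold less Myh2 signal than the median of the other 19 samples, while its brightest Myh4 probe set was 1.11-fold above that median. Saline replicate 7 had 37.3-fold more Myh3 and 6.80-fold more Myh8 signal than the median of the other 19 samples. Results that rest on these samples are given with and without them.

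The comparison of JA16 with saline asks how the myosin transcripts stood 4 days after the first antibody injection. No heavy chain transcript differed between the groups beyond the spread between samples. The 2 slow-type genes, Myh7 and Myh7b, had the largest differences, both lower in JA16. The size for Myh7b is uncertain, because its mean log2 level was under the filter used for testing in JA16 (5.38) and above it in saline (6.27). With an offset of 32 added before the log, the difference was -0.49 for Myh7b and -0.76 for Myh7. The intervals of both genes included 0 in the fit with no block and in the fit with the replicate block. Some alternatives, such as the blocked fit without the samples of replicate 2, gave intervals below 0 for both, and none passed the adjusted threshold. The fast genes Myh4 and Myh1 were close to equal, and the signs for Myh2 and Myh3 turned without JA16 replicate 3 for Myh2 and without saline replicate 7 for Myh3. By limma, 0 of 10 member probe sets passed an adjusted p of 0.05, where 0.00888% of all tested probe sets did (2 of 22517). An unadjusted p under 0.05 was reached by 0 of 10, against 2.22% of all tested probe sets. The fit with the replicate block also called 0 of 10, with 0.200% of all tested probe sets called. Its unadjusted p was under 0.05 for 0 of 10 members, against 3530 of 22517 tested probe sets. Lower values in JA16 were found for 6 of 10 member probe sets, and for 57.7% of all tested probe sets. The median log2 fold change was -0.11 over the 10 and -0.036 over all tested probe sets. In whole muscle, fewer fibres of a type and less RNA per fibre cannot be told apart.

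**Figure D1:**
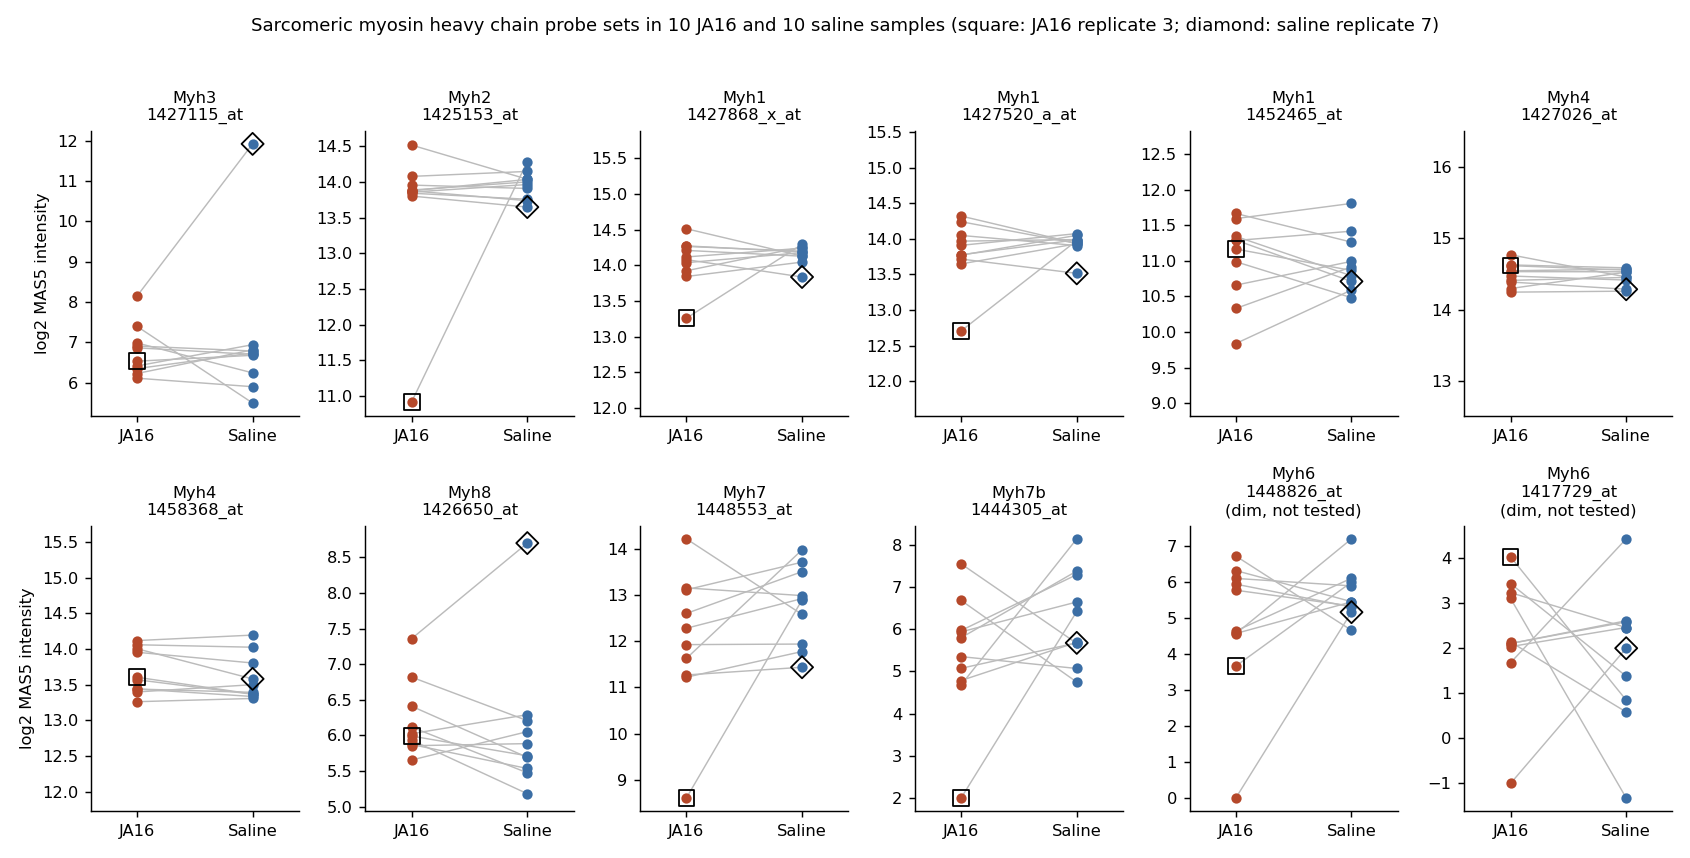
Log2 MAS5 intensity of the 12 myosin heavy chain probe sets (vertical axes) in 10 JA16 and 10 saline samples (horizontal axes), with lines joining samples of the same replicate number, a square on JA16 replicate 3 and a diamond on saline replicate 7. The groups overlap in every panel; JA16 replicate 3 lies far below the rest for Myh2, Myh7 and Myh7b, and saline replicate 7 far above the rest for Myh3 and Myh8.

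**Figure D2:**
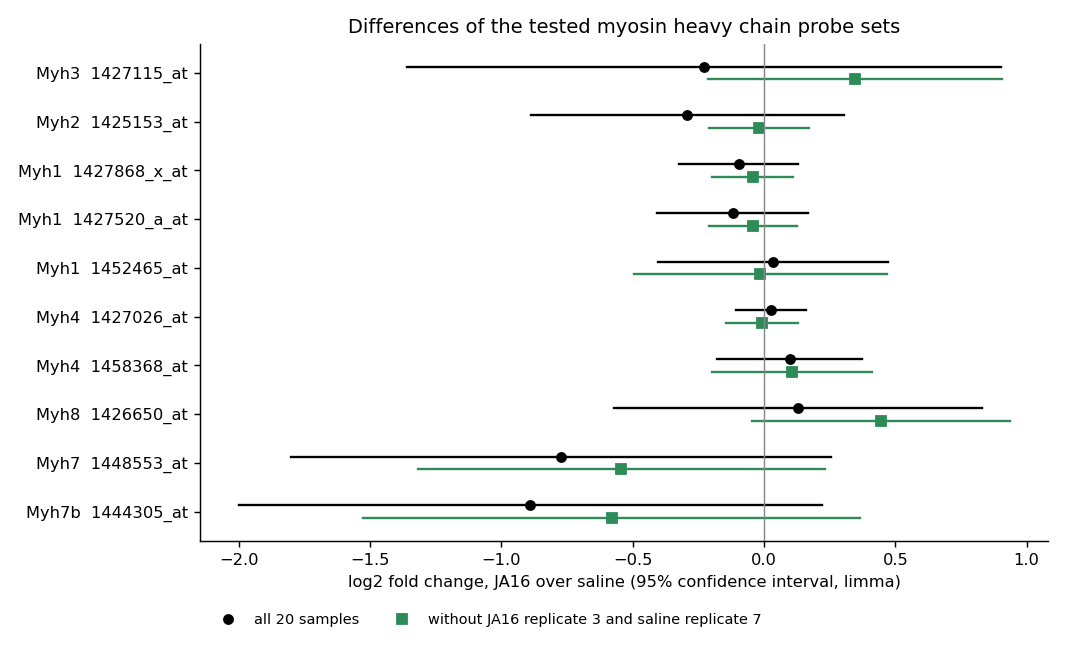
Log2 fold change of JA16 over saline (horizontal axis) with its 95% confidence interval for the 10 tested probe sets (vertical axis), from all 20 samples and without JA16 replicate 3 and saline replicate 7. All 20 intervals include 0; the lowest estimates are those of Myh7b and Myh7, and the widest intervals are those of Myh3, Myh7 and Myh7b.

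Myh4, the type IIb chain of the fastest fibres, differed little between groups on both of its probe sets and was called on neither. On 1427026_at, the lowest, median and highest intensities were 19429, 23227 and 27947.5 in JA16, against 19617, 23064 and 24612 in saline. The groups overlapped over nearly their whole range, and JA16 replicate 2 was the highest of all samples. The means were 23157 ± 2594 in JA16 and 22668 ± 1751 in saline (SD, n = 10 each). The log2 fold change was 0.027 (SE 0.065, 95% confidence interval -0.11 to 0.16, limma adjusted p = 0.9999), and JA16 was higher in 6 of 10 pairs. It took the other sign, -0.035, after quantile normalization. The blocked value was 0.024 within replicates 1 to 6 and 0.030 within replicates 7 to 10.

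On the other Myh4 probe set, 1458368_at, the lowest, median and highest intensities were 9812.5, 12299.5 and 17786 in JA16, against 10128.5, 11164 and 18758 in saline. The groups overlapped, while the 2 array sets did not within either group. Replicates 7 to 10 lay between 15876 and 17786 in JA16 and between 12251 and 18758 in saline, and replicates 1 to 6 between 9812.5 and 12449 in JA16 and between 10128.5 and 11580 in saline. JA16 over saline gave a log2 fold change of 0.097 (SE 0.13, interval -0.18 to 0.37), with JA16 higher in 7 of 10 pairs. With the replicate block its SE was 0.050 and its limma adjusted p 0.352, and the values were 0.074 within replicates 1 to 6 and 0.13 within replicates 7 to 10. The blocked interval was -0.0088 to 0.20. It lay above 0 without pair 1 (0.015 to 0.22, limma adjusted p = 0.249) and without pair 9 (0.0033 to 0.23, 0.329). With any other pair left out of the blocked fit it included 0.

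Myh1, the type IIx chain, has 3 probe sets, none of which differed between groups. On 1427868_x_at, the lowest, median and highest intensities were 9796, 17544 and 23380 in JA16, against 14622, 18589 and 20087 in saline. The lowest JA16 value was that of replicate 3, the lowest saline value that of replicate 7, and the groups overlapped. The log2 fold change was -0.097 (SE 0.11, interval -0.32 to 0.13, limma adjusted p = 0.9999) and -0.044 (SE 0.073) without those 2 samples. Blocked values were -0.16 within replicates 1 to 6 and -0.0033 within replicates 7 to 10.

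On 1427520_a_at, the lowest, median and highest intensities of Myh1 were 6691, 14709 and 20459 in JA16, against 11714, 15893 and 17242 in saline. Again JA16 replicate 3 and saline replicate 7 were lowest in their groups, and the rest overlapped. This probe set had a log2 fold change of -0.12 (SE 0.14, interval -0.41 to 0.17), and -0.043 without both samples, and blocked values of -0.15 within replicates 1 to 6 and -0.078 within replicates 7 to 10. The third probe set, 1452465_at, ran from 916 to 3245 in JA16, with a median of 2395, and from 1430 to 3578 in saline, with a median of 1897. Its lowest JA16 value belonged to replicate 1, and JA16 replicate 3, with 2296, was not low on it. Its log2 fold change was 0.033 (SE 0.21, interval -0.41 to 0.47), and its blocked values, of opposite sign, were -0.051 within replicates 1 to 6 and 0.16 within replicates 7 to 10.

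Probe sets of the same gene did not all vary alike. For Myh1, 1427868_x_at and 1427520_a_at correlated at r = 0.95 over the 20 samples, while 1452465_at correlated with them at -0.13 and -0.18. Within replicates 7 to 10 the last 2 values were 0.49 and 0.63, and within replicates 1 to 6 they were -0.28 and -0.30. The 2 Myh4 probe sets correlated at -0.26 over all samples, 0.07 within replicates 1 to 6 and 0.79 within replicates 7 to 10. The mean log2 level in replicates 7 to 10 minus that in replicates 1 to 6 was 0.63 for Myh1 1452465_at and 0.55 for Myh4 1458368_at, against -0.040 and -0.13 for the brightest probe set of each gene. The array sets differed in 3′ to 5′ signal ratio, and its part in these differences was not tested.

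**Figure D3:**
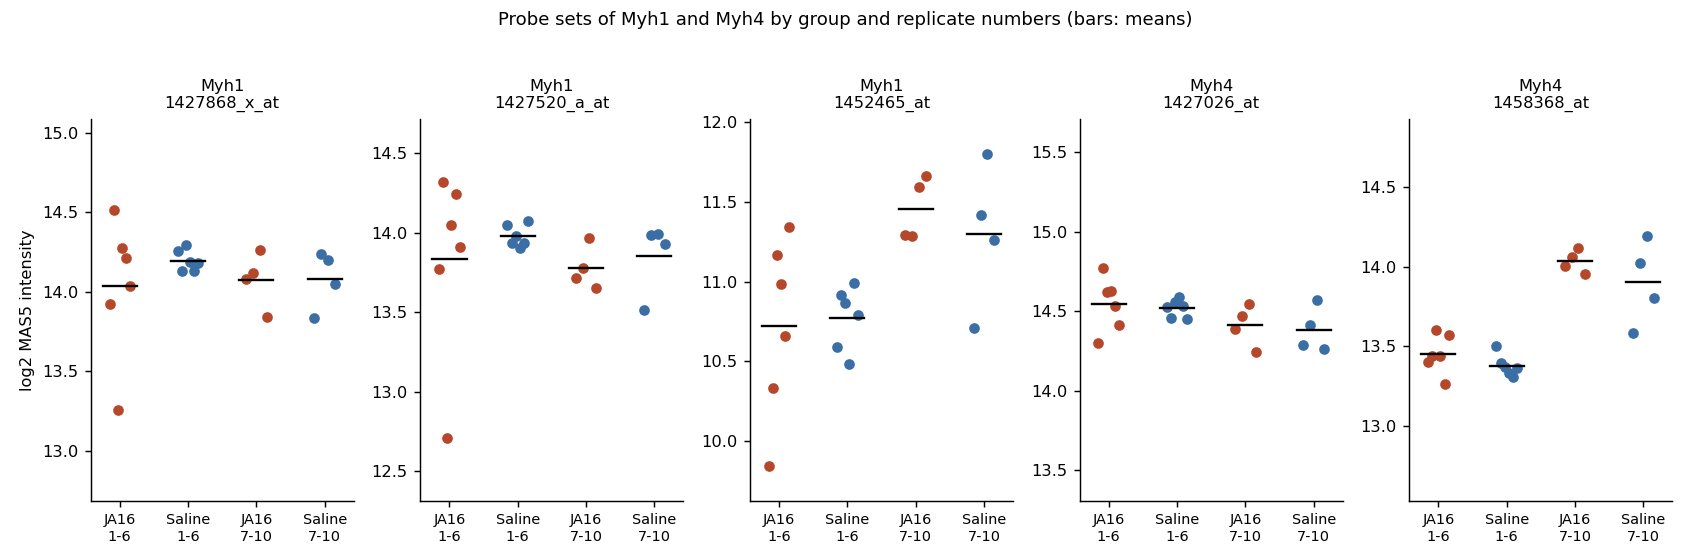
Log2 MAS5 intensity (vertical axes) of the 3 Myh1 and 2 Myh4 probe sets in JA16 and saline samples of replicates 1 to 6 and of replicates 7 to 10 (horizontal axes), with bars at the means. Myh1 1452465_at and Myh4 1458368_at are higher in replicates 7 to 10 in both groups, and the other 3 probe sets are not.

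Myh2, the type IIa chain of fast oxidative fibres, was set apart by 1 sample. JA16 replicate 3 had an intensity of 1933, while the other JA16 samples ran from 14304 to 23486. The lowest, median and highest saline intensities were 12852, 16213 and 20008, and the JA16 median was 15055. Outside JA16 replicate 3 the groups overlapped, and the highest JA16 value, in replicate 2, was above all saline values. The means were 14782 ± 5261 in JA16 and 16007.5 ± 2176 in saline (SD, n = 10 each). The log2 fold change was -0.29 (SE 0.29, interval -0.89 to 0.31, limma adjusted p = 0.9999). It was -0.020 (SE 0.092, interval -0.21 to 0.17) without JA16 replicate 3 and saline replicate 7, and 0.013 without JA16 replicate 3 alone. Within replicates 1 to 6 the blocked value was -0.56, and within replicates 7 to 10 it was 0.11.

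Myh7, the slow chain, was lower in JA16 in 8 of 10 pairs. Its lowest, median and highest intensities were 389, 4437 and 19076 in JA16, against 2772, 7695 and 16163 in saline. The lowest JA16 value was replicate 3, the next lowest was 2387, and JA16 replicate 2 was the highest of all samples, so the JA16 range enclosed the saline range. The means were 6058.5 ± 5370.5 in JA16 and 8111 ± 4437 in saline (SD, n = 10 each). The log2 fold change was -0.77 (SE 0.50, interval -1.80 to 0.26, limma adjusted p = 0.9999). The replicate block gave an SE of 0.39 and a limma adjusted p of 0.345. Differences within pairs ran from -4.29 to 1.64 on the log2 scale, with a median of -0.58.

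Leaving out JA16 replicate 3 and saline replicate 7 gave a log2 fold change of -0.54 for Myh7 (SE 0.37). Within the array set of replicates 1 to 6 the blocked value was -1.06 (SE 0.56), and within that of replicates 7 to 10 it was -0.34 (SE 0.13). The direction was the same in each of these fits, and none passed the adjusted threshold. The interval lay below 0 within replicates 7 to 10 (-0.64 to -0.048, limma adjusted p = 0.713). It also did so in the blocked fits after quantile normalization (-1.59 to -0.015, 0.340), without pair 1 (-1.75 to -0.0077, 0.298) and without pair 2 (-1.82 to -0.26, 0.210). With any other pair left out of the blocked fit it included 0. A further 2 probe sets are annotated to both Myh7 and Myh6 and are no members. The brighter of them, 1448554_s_at, was also lowest in JA16 replicate 3, at 105.3, while the other JA16 samples ran from 487.3 to 4361 and the saline samples from 788.2 to 4267.

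Myh7b had the largest log2 difference of the 10 probe sets with no offset added, and was lower in JA16 in 7 of 10 pairs. Its signal was low: the lowest, median and highest intensities were 4.0, 48.1 and 186.6 in JA16, against 26.8, 68.5 and 281.3 in saline. JA16 replicate 3 was lowest and JA16 replicate 2 highest in their group, as for Myh7, while saline replicate 4 was the highest of all samples for Myh7b. The means were 60.0 ± 52.0 in JA16 and 100.2 ± 80.0 in saline (SD, n = 10 each). The log2 fold change was -0.89 (SE 0.54, interval -2.0 to 0.22, limma adjusted p = 0.9999), with an adjusted p of 0.400 under the block. The mean log2 level was 5.38 in JA16, under the filter of 5.65, and 6.27 in saline, so Myh7b was tested through its saline samples. With an offset of 32 added before the log its difference was -0.49 (SE 0.31), smaller than the -0.76 of Myh7 under the same offset. It was -0.58 (SE 0.45) without JA16 replicate 3 and saline replicate 7. Blocked values were -1.16 within replicates 1 to 6 and -0.48 within replicates 7 to 10.

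Myh3, the embryonic chain, was low in every sample but saline replicate 7. That sample had an intensity of 3878, and the other saline samples ran from 45.1 to 122.9. The JA16 samples ran from 69.1 to 283.0, with a median of 104.5, and the saline median was 105.3. The highest JA16 value belonged to replicate 7, which has the same number as the high saline sample. The means were 121.8 ± 64.1 in JA16 and 471.8 ± 1197 in saline (SD, n = 10 each), the second carried by 1 sample. Over all samples the log2 fold change was -0.23 (SE 0.55, interval -1.36 to 0.90, limma adjusted p = 0.9999). Without JA16 replicate 3 and saline replicate 7 it was 0.35 (SE 0.27, interval -0.21 to 0.91). Blocked values were 0.085 within replicates 1 to 6 and -0.70 within replicates 7 to 10, the set that holds saline replicate 7.

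Myh8, the perinatal chain, was highest in the same samples as Myh3, the replicates numbered 7 of both groups. Saline replicate 7 had 415.7 and the other saline samples ran from 36.3 to 78.3. JA16 replicate 7 had 164.1, the other JA16 samples ran from 50.4 to 112.8, and the medians were 64.4 in JA16 and 55.8 in saline. The groups overlapped. For Myh8 the log2 fold change was 0.13 (SE 0.34, interval -0.57 to 0.83, limma adjusted p = 0.9999) and 0.45 (SE 0.24, interval -0.046 to 0.94) without JA16 replicate 3 and saline replicate 7. Blocked values within the array sets had opposite signs, 0.43 for replicates 1 to 6 and -0.32 for replicates 7 to 10.

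Myh6, the heart alpha chain, was dim on both probe sets and was fitted only in the alternative with no filter. On 1448826_at it ran from 1.00 to 105.9 in JA16, with a median of 39.9, and from 25.3 to 147.5 in saline, with a median of 43.9. On 1417729_at it ran from 0.50 to 16.3 in JA16 and from 0.40 to 21.5 in saline. The groups overlapped on both. The log2 fold changes without a filter were -0.83 (SE 0.60) and 0.48 (SE 0.64), opposite in sign, with limma adjusted p-values of 1.00.

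The isoforms differed widely in how much they varied over the 20 samples. The SD of log2 intensity was 1.34 for Myh7b, 1.3 for Myh3 and 1.26 for Myh7, and 99.2%, 99.1% and 98.8% of all tested probe sets had a smaller SD. It was 0.769 for Myh8, 0.709 for Myh2 and 0.137 for the brightest Myh4 probe set, with 82.7%, 77.9% and 0.755% of tested probe sets below. The brightest Myh1 probe set had an SD of 0.254 (10.8% of tested probe sets below), and the median over all tested probe sets was 0.489. No allowance was made for intensity in these ranks, and whether the brightest signals were compressed was not tested.

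Without JA16 replicate 3 and saline replicate 7, the SD was 1.05 for Myh7b, 0.899 for Myh7, 0.586 for Myh3, 0.505 for Myh8 and 0.194 for Myh2. Myh7 and Myh7b thus kept most of their spread, and Myh2 and Myh3 kept less of theirs. Within groups, the SD of Myh2 was 0.987 in JA16 (0.222 without replicate 3) and 0.196 in saline. That of Myh7 was 1.52 in JA16 (0.996 without replicate 3) and 0.848 in saline. That of Myh3 was 0.618 in JA16 and 1.78 in saline (0.492 without replicate 7).

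The share of the sum of squares that lay between replicate numbers was 79.3% for the median tested probe set. It was 91.0% for Myh4 1458368_at, of which the 2 array sets held 79.5 percentage points, 75.8% for Myh4 1427026_at, 52.7% for Myh7, 38.7% for Myh2 and 34.7% for Myh7b. The share between JA16 and saline was 1.93% for the median tested probe set. Among the tested members it ran from 0.122% for Myh1 1452465_at to 11.5% for Myh7b, with 9.86% for Myh7. Samples that do not vary together also give shares above 0, for which no allowance was made.

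Which isoforms varied together was examined over the 21 pairs of the 7 tested genes, each by its brightest probe set, with permutation tests (100000 resamples, two-sided) adjusted over the 21 pairs. By Pearson's r, 7 pairs passed, all positive. The permutations moved all 20 samples freely, though samples of the same replicate number varied together, so these p-values can be too small. Over the differences within pairs, 3 gene pairs passed. Myh7 and Myh7b had r = 0.91 and Spearman's rho = 0.82 (permutation p = 1e-05 for r, the smallest the resamples can give, adjusted 0.000105; p = 4e-05 for rho, adjusted 0.00084). Without JA16 replicates 2 and 3, the samples farthest from the median of Myh7, r was 0.81. Within replicates 1 to 6, r was 0.93, and within replicates 7 to 10 it was 0.84, with an adjusted exact permutation p of 0.118. It was 0.98 within JA16, 0.75 within saline (adjusted permutation p = 0.0696), and 0.93 over the 10 differences within pairs.

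Myh2 and Myh1 had r = 0.88 and rho = 0.74 (permutation p = 1e-05 and 0.0003, adjusted 0.000105 and 0.00315), but after quantile normalization rho of Myh2 with Myh1 was 0.26 (adjusted 0.577) while r still passed. Leaving out JA16 replicates 2 and 3 gave r = 0.61, and r was 0.95 within replicates 1 to 6 and 0.50 within replicates 7 to 10. Myh1 entered all its pairs by 1427868_x_at alone. Its probe set 1452465_at, which correlated with 1427868_x_at at -0.13, was not low in JA16 replicate 3 (2296). Correlations of 1452465_at with other genes were not examined. The other 4 pairs among Myh1, Myh2, Myh7 and Myh7b that passed by r did not pass by rho, and r was lower without JA16 replicates 2 and 3. With array medians made equal, 3 of the 4 passed by rho: Myh2 with Myh7 at 0.79 (adjusted permutation p = 0.000378), Myh1 with Myh7 at 0.67 (0.00595) and Myh2 with Myh7b at 0.54 (0.0401). For Myh2 with Myh7, r was 0.79 (adjusted permutation p = 0.00182), rho was 0.53 (adjusted 0.0756), r was 0.42 without both samples and -0.18 within replicates 7 to 10. For Myh2 with Myh7b, Myh1 with Myh7 and Myh1 with Myh7b, r was 0.73, 0.72 and 0.62 (adjusted permutation p = 0.0101, 0.0101 and 0.0295), rho was 0.36, 0.28 and 0.19, and r was 0.25, 0.18 and 0.03 without both samples.

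Myh3 and Myh8 had r = 0.81 (permutation p = 0.0029, adjusted 0.0101) and rho = 0.17 (adjusted 0.580). The relation did not hold without JA16 replicate 7 and saline replicate 7, where r was -0.07, and it was 0.11 within replicates 1 to 6 and 0.89 within replicates 7 to 10. By rho, 2 further pairs passed: Myh1 with Myh4 at 0.63 (adjusted 0.0232) and Myh2 with Myh4 at 0.59 (adjusted 0.0369). Their r over all samples was 0.36 and -0.02, and it was 0.86 and 0.71 without JA16 replicates 2 and 3, in the first of which all 3 fast genes were highest of their group on these probe sets. Both calls by rho were lost after quantile normalization (Myh1 with Myh4 at 0.53, adjusted 0.183; Myh2 with Myh4 at 0.32, adjusted 0.577) and over deviations from the group means (adjusted 0.0988 and 0.576). Array medians made equal gave Myh1 with Myh4 r = 0.77 and rho = 0.83, so the correlations among the fast genes depend on the scaling.

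**Figure D4:**
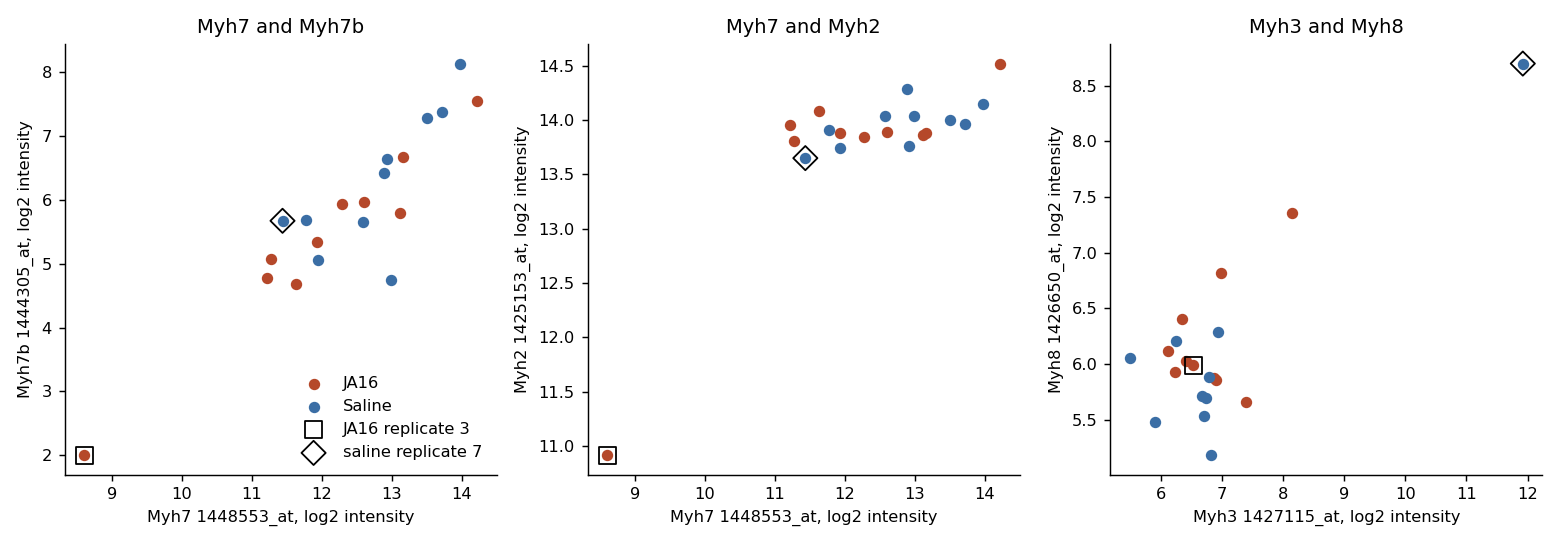
Log2 intensity of Myh7b against Myh7, of Myh2 against Myh7 and of Myh8 against Myh3 (axes in log2 MAS5 intensity), with 1 point per sample, JA16 and saline in different colours, a square on JA16 replicate 3 and a diamond on saline replicate 7. The Myh7 and Myh7b points rise together along their whole range (r = 0.91). The r of 0.79 for Myh2 with Myh7 was 0.42 without JA16 replicates 2 and 3. The r of 0.81 for Myh3 with Myh8 was -0.07 without JA16 replicate 7 and saline replicate 7.

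The genes whose levels were most like each isoform over the 20 samples were ranked by Pearson's r of log2 intensity among 11200 tested genes, as a description. For Myh7 they were Atp2a2 (r = 0.983), the calcium pump of slow and heart muscle, Myl2 (0.952), the slow regulatory light chain, and Ldhb (0.924), a lactate dehydrogenase subunit. For Myh7b they were Atp2a2 (0.933), Myh7 (0.914) and Cyfip2 (0.879). Without JA16 replicate 3 and saline replicate 7, Atp2a2 had r = 0.97 with Myh7 and 0.88 with Myh7b, and was still first for both. For Myh2 they were Myoz2 (0.980), a Z-disc protein of slow fibres, Atp1b1 (0.978), a sodium pump subunit, and Myl3 (0.974), the slow essential light chain, and r without the 2 samples was 0.69, 0.92 and 0.66.

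For Myh1 the most similar genes were Atp1b1 (0.894), Mpped2 (0.892) and Mb (0.888), which encodes myoglobin. Without JA16 replicate 3 and saline replicate 7 the first 2 for Myh1 were Mylpf (0.91), the fast regulatory light chain, and Myh4 (0.89), a ranking added after the values were seen. For Myh4 they were Mylpf (0.968), Acta1 (0.948) and Tnnt3 (0.940), the fast troponin T, and the same 3 came first without the 2 samples. For Myh3 they were Ube2c (0.874), a ubiquitin-conjugating enzyme of mitosis, Cd44 (0.855), a hyaluronan receptor, and Fcgr2b (0.853), an inhibitory antibody receptor, and r without the 2 samples was 0.68, 0.42 and 0.36. For Myh8 they were Nid2 (0.851), a basement membrane protein, Kdelr3 (0.850) and Serpinb1a (0.843), with 0.69, 0.65 and 0.63 without them. All samples share the array set and pair structure described above.

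The partners of the slow chain stood low in the same sample. Of 13 slow fibre genes, all were tested and 0 were called (limma, 1 at an unadjusted p under 0.05), with 11 lower in JA16. Their median log2 fold change was -0.43, against -0.036 over all tested probe sets, and -0.09 without JA16 replicate 3 and saline replicate 7. JA16 replicate 3 was the lowest of all 20 samples for 10 of the 13 genes, where 5.63% of all tested probe sets were lowest in it. The summed level of the 13 genes ran from 12474 to 153264 in JA16 and from 66532 to 125773 in saline, and the value of 12474 was that of replicate 3. The brightest of them, Myl3 and Mb, averaged 16702 ± 7383 and 15481 ± 4557 in JA16, against 18175 ± 3828 and 17331 ± 1853 in saline (SD, n = 10 each). In JA16 replicate 3 they were 990 and 4094.

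Markers of nerve and of tendon also had lower values in JA16, for 6 of 6 and 7 of 7 tested genes, with median log2 fold changes of -0.60 and -0.84 and 0 called by limma (4 and 1 at an unadjusted p under 0.05). The brightest nerve genes, Pmp22 and Mbp, which encode myelin proteins, averaged 6562 ± 1635 and 2699 ± 1375 in JA16, against 7886 ± 1309 and 3905 ± 1427 in saline (SD, n = 10 each). The brightest tendon genes, Fmod (fibromodulin) and Thbs4 (thrombospondin 4), averaged 10809.5 ± 5730.4 and 4906 ± 1727.5 in JA16, against 12577 ± 3849 and 5062 ± 1551 in saline (SD, n = 10 each). The summed nerve markers ran from 6529 to 18250 in JA16 and from 9222 to 18784 in saline, and the tendon markers from 5208 to 30548 in JA16 and from 13916 to 31182.5 in saline. Their part in the Myh7 and Myh7b values was not tested. JA16 replicate 3 was the lowest sample for 1 of the 6 nerve and 1 of the 7 tendon genes.

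Most partners of the fast chains differed little between the groups, like Myh4. Of 13 fast fibre genes, 12 were higher in JA16 and 0 were called (0 at an unadjusted p under 0.05), with a median log2 fold change of 0.06 that was 0.00 without the 2 samples. With the replicate block 0 were called. Its unadjusted limma p was 0.0255 for Myoz1, 0.0304 for Casq1, 0.0377 for Actn3 and 0.0385 for Mybpc2, all higher in JA16. It was 0.014 for Mylk2, the 1 gene lower in JA16 (log2 fold change -0.30). These genes were chosen after their values were seen, and 3530 of 22517 tested probe sets had a blocked unadjusted p under 0.05. Mylpf averaged 27939 ± 3614 in JA16 and 27138 ± 2394 in saline, and Tnni2, the fast troponin I, 27263 ± 2870.5 in JA16 and 26076 ± 2581 in saline (SD, n = 10 each). In JA16 replicate 3, where Myh7 was lowest, Mylpf was 31160 and Tnni2 31416, within the range of the other samples.

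The embryonic and regeneration genes moved with Myh3 in saline replicate 7. Of 10 listed, 7 were tested and JA16 had the lower value in 6, with 0 called by limma (2 at an unadjusted p under 0.05) and a median log2 fold change of -0.30, or -0.09 without JA16 replicate 3 and saline replicate 7. Saline replicate 7 was the highest of 20 samples for 5 of the 7, where 13.6% of all tested probe sets were highest in it. Myl4, the embryonic and atrial light chain, was 5448 in saline replicate 7 and between 828 and 1932 in the other 19 samples. Chosen after their values were seen, Tnnt2, the heart and embryonic troponin T, was 3298 against 140.2 to 449.3 in those 19, and Myog, a myogenic factor of differentiating muscle cells, 2132 against 151.5 to 781.5.

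The genes of cell fusion were dim in the other samples and high in saline replicate 7. Mymk and Mymx, which encode the muscle fusion proteins, and Chrng, the fetal acetylcholine receptor subunit, all below the filter and also chosen after their values were seen, were 684.4, 2435 and 505.1 there. In the other 19 samples they reached at most 83.2, 140.1 and 47.3. Leukocyte markers moved with them: saline replicate 7 was highest for 4 of 6 tested genes, and the summed markers ran from 5901 to 24421 in JA16 and from 7493 to 27884 in saline, the last being replicate 7. Lyz2, the macrophage lysozyme, was 13131 in saline replicate 7 and 2411 to 7819 in the other 19, and C1qb, a complement subunit, was 8898, inside its range there. The part of leukocytes in the Myh3 and Myh8 values was not tested.

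**Figure D5:**
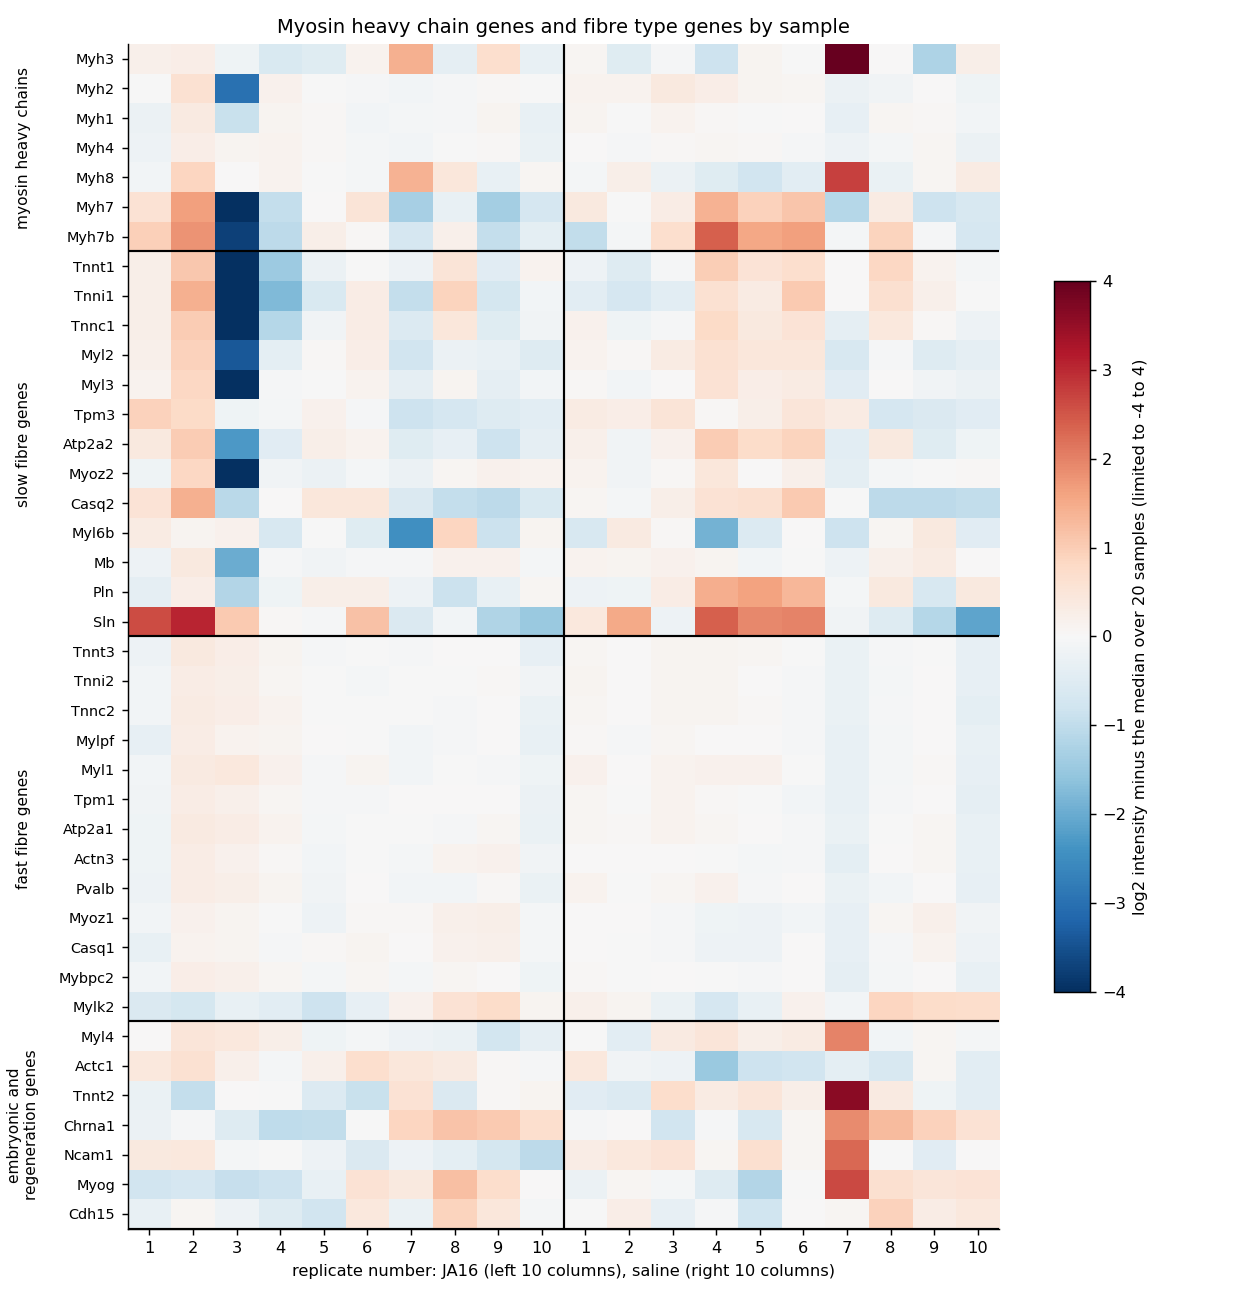
Log2 intensity minus the median over the 20 samples (colour, limited to -4 to 4) for the 7 tested myosin genes and the tested slow fibre, fast fibre and embryonic genes (rows), in JA16 (left) and saline (right) replicates 1 to 10 (columns). JA16 replicate 3 is low for Myh2, Myh7, Myh7b and most slow fibre genes, saline replicate 7 is high for Myh3, Myh8 and most embryonic genes, and the fast fibre genes vary little.

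One embryonic gene passed the test, in the fit with the replicate block only. Actc1, the heart actin that skeletal muscle expresses in development, averaged 13705 ± 2508 in JA16 and 8692 ± 3077 in saline (SD, n = 10 each). Its log2 fold change was 0.72 (SE 0.17, limma adjusted p = 0.747, and 0.0427 with the block), and 0.73 without JA16 replicate 3 and saline replicate 7. The blocked call was lost in 8 of 10 fits that left out 1 pair and kept in 2 (limma adjusted p = 0.0216 to 0.122), and without pairs 3 and 7 it had 0.151. Blocked values were 0.84 within replicates 1 to 6 and 0.54 within replicates 7 to 10. Saline replicate 7, with 8509, was not high for Actc1, unlike Myh3.

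Genes that fold myosin or build the thick filament showed no call. Of the 14 tested, 10 were higher in JA16, with a median log2 fold change of 0.05 and 2 at an unadjusted p under 0.05. Titin (Ttn) averaged 18474 ± 2229 in JA16 and 18298 ± 1498 in saline, and the chaperone Cryab 15888 ± 1928 in JA16 and 15108.5 ± 1327 in saline (SD, n = 10 each). Of the 32 tested regulators of myosin genes, JA16 had the lower value in 23, and the median log2 fold change was -0.09, with 0 called and 2 at an unadjusted p under 0.05. Mef2c, a MEF2 factor, averaged 9269 ± 2826 in JA16 and 9499 ± 2163 in saline, and Maf, a transcription factor of the large Maf family, 9544 ± 1643 in JA16 and 9105 ± 1016 in saline. The heavy chains of other myosins were likewise not called: Myh9, a non-muscle chain, averaged 6161.5 ± 1902 in JA16 and 6168.5 ± 1034 in saline, and Myh10, another, 1091 ± 493 in JA16 and 1059 ± 396 in saline (SD, n = 10 each).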

How the data were processed

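Intensities of 45101 probe sets in 20 samples are used as the authors deposited them, on a linear scale, made with MAS5 per the submitters' processing notes (no version). All arrays had a trimmed mean of 500.0. Values at or below 0 (5 of them) were set to 0.1 and log2 was taken. The 64 controls were left out, and 22517 probe sets with a mean log2 of at least 5.65 (an intensity of 50.1) were tested with limma 3.58.1 in R 4.3.3 (lmFit, eBayes with an intensity trend), adjusted by Benjamini-Hochberg over all of them. Genes came from the platform annotation (1 gene for 34945 probe sets, several for 932, none for 9160), and 34741 identifiers matched RefSeq. Samples with the same replicate number were treated as pairs: the lowest and highest correlation of deviations from group means among the 10 pairs were 0.449 and 0.783, while samples of different number had a median of -0.134. Of the tests, the limma fits with and without the replicate block were checked on simulated data. Named genes are every member, the 2 brightest tested genes and any called gene of each list, and the 3 genes most like each member by r; other genes are named as chosen after their values were seen. The members, lists and tests were chosen with earlier results of these data known. Alternatives cover scaling, filters, an offset, blocks and samples left out. The lists of adipocyte and blood markers had 2 and 1 tested genes, all lower in JA16 and none called, led by Adipoq (-0.56), Cidec (-0.38) and Alas2 (-0.10).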

Additional observations from a re-analysis of the deposited data

Results flagged for a closer look

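In 24 sets of 10 values (12 probe sets in each group), the most extreme sample was set against its nearest neighbour: its gap divided by the range of the group was compared with Dixon's 95% critical value for 10 values. The ratio was above it in 10 sets, where chance gives about 1 in 20.

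JA16 replicate 3 was low for 5 probe sets, with ratios of 0.8015 for Myh2 (intensity 1933), 0.4661 for Myh7 (389), 0.4831 for Myh7b (4.0), 0.4662 for Myh1 1427868_x_at (9796) and 0.5833 for Myh1 1427520_a_at (6691). It was not extreme on either Myh4 probe set, on Myh3 or on Myh8. The ratios of Myh7 and of Myh1 1427868_x_at were only just above the critical value.

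Saline replicate 7 was high for Myh3 with a ratio of 0.7749 (3878) and for Myh8 with 0.6847 (415.7), and low for Myh1 1427520_a_at with 0.6998 (11714). JA16 replicate 7 was low on both dim Myh6 probe sets, with ratios of 0.5451 (intensity 1.00) and 0.5328 (0.50), where the log2 scale stretches small differences.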

How the results depend on the processing

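Every fit called 0 of the tested member probe sets. The count over all probe sets was 2, and 45 with the replicate block, 41 with the block and quantile normalization, 1 with a stricter filter, 4 with 1 probe set per gene, 9 with the array set as a block, 4 with the block without pairs 3 and 7, and 0 with the block within replicates 1 to 6 or within replicates 7 to 10, which leave fewer samples. It was 2 to 5 with a sample left out and 7 to 52 with a pair left out. Partner list genes called were 0, and 1 with the block, with or without quantile normalization (1 in 2 of 10 fits with a pair left out, 0 in the other 8). The replicate block changed no call of a member.

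Signs turned as follows, each time with the cause not tested beyond the samples named. Without JA16 replicate 3 and saline replicate 7, log2 fold changes were 0.35 for Myh3, -0.014 for Myh1 1452465_at and -0.0072 for Myh4 1427026_at. With the block and without pairs 3 and 7 they were 0.21 for Myh3, 0.038 for Myh2 and -0.069 for Myh1 1452465_at. With the block in replicates 1 to 6 they were 0.085 for Myh3 and -0.051 for Myh1 1452465_at, and in replicates 7 to 10 they were 0.11 for Myh2 and -0.32 for Myh8. Quantile normalization, with or without the block, gave -0.035 for Myh4 1427026_at. With a sample left out, values ran from -0.40 to 0.32 for Myh3, -0.39 to 0.013 for Myh2, -0.18 to 0.0032 for Myh1 1427520_a_at, -0.039 to 0.16 for Myh1 1452465_at and -0.0043 to 0.054 for Myh4 1427026_at. With a pair left out under the block they ran from -0.46 to 0.17 for Myh3, -0.38 to 0.051 for Myh2, -0.15 to 0.0073 for Myh1 1427868_x_at, -0.18 to 0.0083 for Myh1 1427520_a_at, -0.028 to 0.12 for Myh1 1452465_at and -0.0049 to 0.055 for Myh4 1427026_at. Myh7 (-1.02 to -0.39), Myh7b (-1.13 to -0.51) and Myh8 (0.0015 to 0.42) kept their sign with any sample left out. So did Myh4 1458368_at (0.049 to 0.165) and Myh1 1427868_x_at (-0.15 to -0.0088).

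The SD over samples without JA16 replicate 3 and saline replicate 7 was 0.586 for Myh3, 0.194 for Myh2, 0.150 and 0.167 for Myh1 1427868_x_at and 1427520_a_at, and 0.505 for Myh8. For Myh4 1427026_at it was 0.0583 after quantile normalization and 0.307 with array medians made equal, and for Myh7b 0.772 with an offset of 32. With a sample left out it ran from 0.570 to 1.34 for Myh3, 0.203 to 0.728 for Myh2, 0.164 to 0.261 and 0.191 to 0.340 for those Myh1 probe sets, and 0.491 to 0.790 for Myh8.

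Correlated pairs numbered 7, and 5 after quantile normalization or with the offset, 8 with array medians made equal, 3 over pair differences, 2 within JA16, 2 within saline, 2 within replicates 1 to 6, 0 within replicates 7 to 10, 4 without JA16 replicate 3 and saline replicate 7, and 6 to 7 with a sample left out. Within replicates 7 to 10, r was -0.18 for Myh2 with Myh7 and -0.33 for Myh2 with Myh7b. Subsets hold fewer samples, and an exact 8-sample test has little reach.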

Other observations

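Within the saline samples, 2 gene pairs passed by Pearson's r, and neither was among the 7 that passed over all 20 samples. Myh8 and Myh7 had r = -0.76 and rho = -0.89 (permutation p = 0.00032 and 0.00097, adjusted over 21 pairs 0.00672 and 0.0204). In JA16 samples the same pair had r = 0.12 and rho = 0.01, and the difference between the groups was not tested. The array sets differ in both genes, and over both groups the pair had r = -0.12 within replicates 1 to 6 and r = -0.44 with rho = -0.10 within replicates 7 to 10, none of which passed. Over all 20 samples it had r = -0.29 and rho = -0.47 (adjusted 0.387 and 0.135). Myh2 and Myh4 had r = 0.82 and rho = 0.73 in saline samples (adjusted permutation p = 0.0396 and 0.104), and r = -0.11 and rho = 0.47 in JA16 samples. Over all samples the r of this pair was 0.80 without JA16 replicate 3 and -0.02 with it.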
